A study of Mus musculus with 2 samples.

Results

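Vascular endothelial nuclei of the lactating mouse mammary gland were taken from 1 pooled single-nucleus RNA library by their own messages. A nucleus was counted as a member when at least 3 of 8 genes of blood vessel endothelium (Mecom, Ptprb, Flt1, Cyyr1, Adgrl4, Egfl7, Pecam1 and Shank3) had a unique molecular identifier (UMI, 1 counted RNA molecule). At most 1 UMI was allowed over Pdgfra, Ptprc, Trp63, Adipoq and Abcc9, which mark fibroblasts, leukocytes, myoepithelium, adipocytes and pericytes. Nuclei needed 500 UMIs, 300 genes and a mitochondrial share under 5%. Of the 20854 that met this, 503 were members (2.41%) and 20351 were not.

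The study asked what the oxytocin receptor (Oxtr) of adipocytes does in the lactating gland. The Oxtr-KO dams (n = 4) carried an adipocyte-specific Oxtr deletion and the flox control dams (n = 4) carried the Oxtr flox allele. All were bred at 8 weeks of age on standard chow and nursed litters set to 4 or 5 pups at postnatal day 1, and their inguinal fat pads were frozen on postnatal day 11 with lymph nodes removed. The labels' batch entry lists 7 litters of 5 pups and 1 of 3, which differs from the standard set by the protocol, and names no dam. Which Cre line drives the deletion is not stated in the labels used. Nuclei of all 8 animals carried DNA hashtags and shared 1 library. The hashtags are named Oxtr-KO or WT, and the WT hashtags were taken as the flox animals because the labels name no other genotype, so every genotype value below rests on that reading.

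Endothelial cells line every blood vessel. Their identity is held by ETS and SOX family transcription factors, and their growth by vascular endothelial growth factor (VEGF), angiopoietin, Notch and bone morphogenetic protein (BMP) signals. In fat and in the lactating mammary gland, capillary endothelium also handles fatty acids: GPIHBP1 holds lipoprotein lipase on the vessel wall, CD36 takes up the fatty acids that it frees, and FABP4 carries them inside the cell. Arteries, capillaries and veins each keep their own gene programmes.

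The members carried the messages of blood vessel endothelium well beyond the 8 genes that chose them. The 8 genes themselves summed to 4520 CPM (UMIs per 1000000 UMIs of the same nuclei) in the members and 33.3 CPM in all other nuclei, which restates the rule and is no finding. At the edge of the rule, 133 nuclei with exactly 2 of the 8 markers had the ETS factor Fli1 at 104 CPM and the adhesion protein Cdh13 at 495 CPM. The 100 nuclei with exactly 3 markers had Fli1 at 363 CPM and Cdh13 at 1818 CPM, and the 59 nuclei with all 8 had 814 and 2167 CPM. The exclusion left out 17 nuclei with 2 UMIs over the excluded genes and kept 43 nuclei with 1. Marker sums of the other types were at or below those of the remaining nuclei for pericytes (94.0 CPM in members against 138 CPM in others over 8 genes), smooth muscle (210 CPM in members against 380 CPM in others over 6 genes), fibroblasts (337 CPM in members against 524 CPM in others) and macrophages (177 CPM in members against 229 CPM in others). The adipocyte markers summed to 2216 CPM in members and 3317 CPM in other nuclei. T and NK cell markers summed to 28.1 CPM in members against 67.8 CPM in others, plasma cell markers to 335 CPM in members against 366 CPM in others, hormone-sensing luminal markers to 523 CPM in members against 795 CPM in others and myoepithelial markers to 177 CPM in members against 411 CPM in others, and Nkg7, Mzb1, Areg and Tnfsf11 were at 0 in members. The pericyte, fibroblast, macrophage, adipocyte, T and NK cell and myoepithelial lists each hold a gene that the rule excludes. Part of their lower sums in members was therefore fixed by the rule. Ptprc, in the macrophage and the T and NK cell lists, was at 7.66 CPM in members against 45.2 CPM in others. Pdgfra was at 2.04 CPM in members against 38.8 CPM in others, and Trp63 at 3.58 CPM against 52.1 CPM. Schwann and neuronal markers summed to 588 CPM in members against 556 CPM in others. In members under and over the luminal cut described below they summed to 894 and 390 CPM. Members with 1 animal's hashtag had 233 to 380 CPM in the Oxtr-KO and 156 to 389 CPM in the flox animals. Lymphatic endothelial markers were low: 7 genes summed to 115 CPM in members and 65.6 CPM in other nuclei, and 6 members had UMIs of 2 or more of them (Prox1 left out).

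All members carried some RNA of milk-secreting luminal cells, and a part of them carried more of 10 luminal genes. Over 10 genes of luminal nuclei (Elf5, Prlr, Btn1a1, Xdh, Plin2, Acaca, Slc28a3, Olah, B4galt1 and Naaladl2, of which the last 5 were chosen after their values were seen), 377 members held under 1.5% of their UMIs, with a median of 0.360% (luminal-low members). The other 126 (luminal-high members) held a median of 2.75%, against 2.91% in all other nuclei, and 39 members lay between 1% and 2%. The members over this value were deep, with a median of 7734.5 UMIs, and 28 of the 126 carried the hashtags of several animals (22.2%, exact 95% interval 15.3 to 30.5%). Those under it had a median of 1616 UMIs, and 5 of 377 carried several hashtags (1.33%, 0.432 to 3.07%). Endothelial marker UMIs per nucleus averaged 18.2 in the luminal-high members and 17.4 in the luminal-low members. Milk protein RNA took a median of 17.7% of UMIs in members and 15.1% in all other nuclei, with 13.3% in the luminal-high and 22.3% in the luminal-low members. At least 3 of 8 secretory luminal markers, which include Csn2, Wap and Lalba, had a UMI in 100% of members. These 8 summed to 77717 CPM in members and 71086 CPM in others, with 102230 CPM in luminal-low and 61898 CPM in luminal-high members. The name luminal-low thus holds for the 10 genes only. Levels below are for all members, with luminal-low members beside them where stated, and the part of luminal RNA in each was not tested. Intervals cover counting error only.

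**Figure D1:**
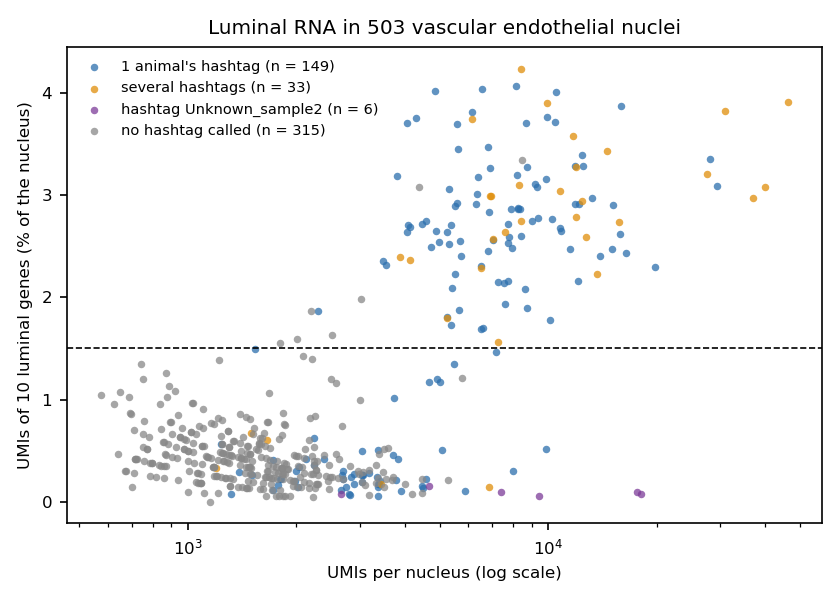
Share of UMIs from 10 luminal genes (y axis, %) against UMIs per nucleus (x axis, log scale) in the 503 vascular endothelial nuclei, coloured by hashtag call; the dashed line marks 1.5%. Most nuclei with no called hashtag (315) lie low on both axes, while 91 of the 149 nuclei with 1 animal's hashtag lie at or over the line.

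Hashtags placed few members with an animal. A single animal was called for 149 members (29.6%), none for 315 (62.6%, exact 95% interval 58.2 to 66.9%) and several for 33, while none was called for 26.2% of other nuclei. The median depth was 5411 UMIs in members with 1 animal and 1474 UMIs in members with no call. Of the 149, only 58 were luminal-low. Values per animal therefore rest on 12 to 28 nuclei. Nuclei with 1 animal held 49.2% of the UMIs behind pooled values of all members and 24.9% of those of luminal-low members.

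Of the gene lists, those of capillaries and arteries had the highest median log2 ratios between members and other nuclei, at 5.03 and 4.19. A gene was called higher when its pooled level was at least 4 times that in all other nuclei (after adding 1 CPM to both) and higher in each of the 8 animals, which held for 268 of 16106 genes with enough UMIs (1.66%). Since the members were chosen on this contrast, these levels are descriptions with no test. All 268 genes were higher in luminal-low members than in all members, 266 of them by over 1.5 times. The same count was not made over all 16106 genes, whose median log2 ratio to other nuclei was −0.02 in members and −0.03 in luminal-low members. Since the 268 were called on the members' own levels, this count describes them and is no support. The 25 genes with the highest ratio outside the rule, among those with a UMI in at least 10% of members, were Erg, Emcn, Fgd5, Btnl9, Ushbp1, Dipk2b, Eng, Cdh5, Kdr, Adgrf5, Ablim3, Sox17, Tll1, Aqp1, Rbp7, Cdh13, Gm29007, Rasip1, Zfp366, Tie1, Ccm2l, Sema3g, Cd300lg, S1pr1 and Bmp6. Their ratios ran from 66.0 for Erg to 34.5 for Bmp6.

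Erg (ENSMUSG00000040732.21), the ETS factor that maintains endothelial identity, was at 109 CPM in all members, 199 CPM in luminal-low members and 0.665 CPM in other nuclei. Over the 8 animals its lowest, median and highest level was 47.0, 86.2 and 136 CPM in members, against 0, 0.488 and 0.815 CPM in other nuclei, so the ranges were far apart. Cdh5, the cadherin of endothelial junctions, was at 62.7, 124 and 174 CPM in the animals' members and at 0.965, 1.34 and 2.50 CPM in their other nuclei. Kdr, the main VEGF receptor, was at 76.2, 104 and 213 CPM in members and 0.280, 1.62 and 2.55 CPM in other nuclei. For these 3 genes every animal's members were above every animal's other nuclei. Bmp6, a BMP ligand, varied more: it spanned 47.0, 127 and 818 CPM in members, against 1.82, 2.99 and 3.92 CPM in other nuclei, and its top animal stood well above the median. Cdh13, known as T-cadherin and a receptor for adiponectin, reached 2083 CPM in members (3972 CPM in luminal-low members) and 51.2 CPM in other nuclei. A UMI of Cdh13 was found in 78.9% of members, at a median of 1995 UMIs per nucleus, and in 9.77% of other nuclei, at a median of 4389 UMIs.

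**Figure D2:**
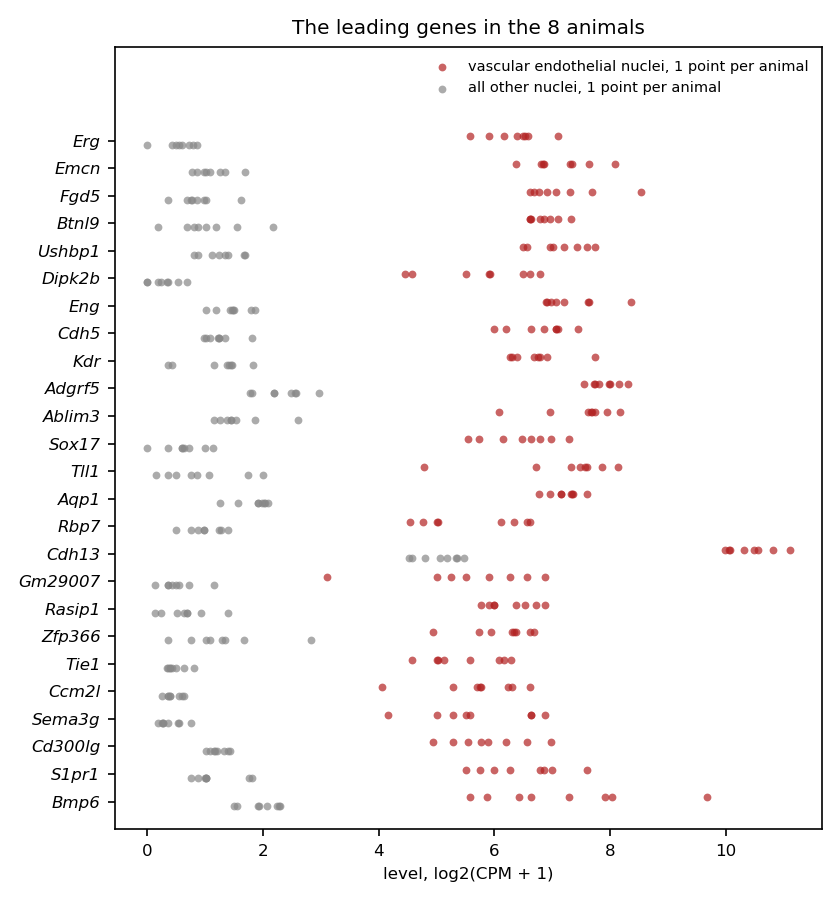
Levels of the 25 leading genes, as log2(CPM + 1) on the x axis, with 1 point per animal for vascular endothelial nuclei (red) and all other nuclei (grey). In all 25 rows every red point lies above the grey point of the same animal; Erg spans 47.0 to 136 CPM in red and 0 to 0.815 CPM in grey.

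Promoter windows of these genes were read from RefSeq (GRCm38.p6), from 250 bases before to 50 bases after the annotated start and written along the gene's strand. They are shown because the 25 genes are high together and ETS factors (Erg, Fli1) are among the factors that are high with them. The windows of 1 chromosome were left out, so all windows counted here are those of the other chromosomes. A leading gene on the chromosome left out counts as having no window. Of the 25 genes, 17 had a window (20 windows in all). The ETS motif CAGGAAG, on either strand, was in 6 of the 20 windows (30%), those of Erg, Emcn, Btnl9, Ushbp1, Adgrf5 and Rasip1, and in 13.3% of all 32851 windows. The longer ETS motif AACAGGAA, which can overlap it, was in 2 (Emcn and Ushbp1, 10%) and in 2.65% of all windows. The motif CCGGAAGT was in 0 and in 3.89% of all windows, and the TATA box letters TATAAA were in 2 (Erg and Btnl9) and in 13.6%. Below, capitals mark CAGGAAG and AACAGGAA on either strand; in Emcn the 2 motifs overlap. Emcn lies at chr3:137340828-137341127 (plus strand), Btnl9 at chr11:49187040-49187339 (minus strand) and Erg, 1 of its 3 windows, at chr16:95459299-95459598 (minus strand). Kdr at chr5:75978406-75978705 and Tie1 at chr4:118489800-118490099, both on the minus strand, hold neither motif in the window and are printed for contrast. A match is only a run of letters, and binding was not measured.
Emcn: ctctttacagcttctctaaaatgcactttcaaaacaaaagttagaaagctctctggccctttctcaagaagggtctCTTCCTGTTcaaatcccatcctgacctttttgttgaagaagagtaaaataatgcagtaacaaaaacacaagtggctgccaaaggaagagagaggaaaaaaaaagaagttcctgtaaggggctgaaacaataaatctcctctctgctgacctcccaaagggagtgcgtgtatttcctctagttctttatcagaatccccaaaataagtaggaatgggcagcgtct
Btnl9: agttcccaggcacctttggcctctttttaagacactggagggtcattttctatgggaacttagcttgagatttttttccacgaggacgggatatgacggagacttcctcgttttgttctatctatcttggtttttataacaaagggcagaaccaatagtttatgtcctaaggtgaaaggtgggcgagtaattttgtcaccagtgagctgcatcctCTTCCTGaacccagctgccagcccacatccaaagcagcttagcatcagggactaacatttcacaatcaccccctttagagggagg
Erg: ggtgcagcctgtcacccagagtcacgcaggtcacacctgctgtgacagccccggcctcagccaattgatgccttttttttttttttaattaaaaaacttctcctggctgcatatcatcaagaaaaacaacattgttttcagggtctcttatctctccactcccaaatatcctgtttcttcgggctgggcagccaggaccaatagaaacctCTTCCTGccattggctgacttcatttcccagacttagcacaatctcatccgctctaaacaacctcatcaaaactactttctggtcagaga
Kdr: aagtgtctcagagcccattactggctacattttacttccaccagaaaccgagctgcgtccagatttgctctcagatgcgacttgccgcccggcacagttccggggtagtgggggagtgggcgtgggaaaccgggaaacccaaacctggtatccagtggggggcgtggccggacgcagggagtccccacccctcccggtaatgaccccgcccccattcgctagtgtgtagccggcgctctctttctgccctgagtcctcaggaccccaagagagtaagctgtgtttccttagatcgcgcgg
Tie1: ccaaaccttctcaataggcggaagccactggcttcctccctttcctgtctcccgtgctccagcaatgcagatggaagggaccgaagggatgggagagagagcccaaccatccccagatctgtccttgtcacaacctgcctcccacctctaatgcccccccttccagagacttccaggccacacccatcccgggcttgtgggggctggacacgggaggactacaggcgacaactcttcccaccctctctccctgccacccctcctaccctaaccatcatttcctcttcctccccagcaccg

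Of the endothelial transcription factors, 11 of 15 measured genes were called higher, with a median log2 ratio of 2.96, against −0.02 over all genes. Fli1 was at 599 CPM in members (1089 CPM in luminal-low members) and 25.03 CPM in other nuclei, and its lowest animal, at 364 CPM, was above the highest value of other nuclei, 23.3 CPM. Ets1 was at 170 CPM in members (330 CPM in luminal-low members) against 8.54 CPM in others and Elk3, also of the ETS family, at 193 CPM in members (343 CPM in luminal-low members) against 13.7 CPM in others. Sox17, a factor of arterial identity, was at 77.2 CPM in members against 0.674 CPM in others. Mef2c and Epas1 (HIF-2 alpha, which responds to low oxygen) were higher by a smaller ratio, at 247 CPM in members against 43.2 CPM in others and 219 CPM in members against 41.7 CPM in others. In luminal-low members they were at 464 and 395 CPM.

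The VEGF receptor Kdr, its co-receptors and the angiopoietin receptors were called higher in members. In the VEGF list 5 of 9 genes were called, 1 of them the rule gene Flt1 (median log2 ratio 3.10). The co-receptors Nrp1 (307 CPM in members, 588 CPM in luminal-low members, against 31.4 CPM in others) and Nrp2 (147 CPM in members against 6.50 CPM in others) were called with Kdr. Flt4, the VEGF receptor of lymphatic vessels, had too few UMIs to be counted, at 14.8 CPM in members against 0.275 CPM in others, and was higher in 4 of 8 animals. The ligand Vegfc was called too, at 94.0 CPM in members against 10.1 CPM in others, with animals between 15.7 and 465 CPM. Vegfa, the main ligand of Kdr, was at 199 CPM in members, 89.9 CPM in luminal-low members and 276 CPM in other nuclei, and lower in members in 7 of 8 animals. In the angiopoietin list 3 of 6 genes were called, among them the receptors Tek (141 CPM in members against 11.6 CPM in others) and Tie1 (51.1 CPM in members against 0.418 CPM in others) and the rule gene Ptprb, the phosphatase that restrains them. Their ligand Angpt1 was at 203 CPM in members, 70.4 CPM in luminal-low members and 322 CPM in other nuclei.

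Notch and BMP genes were called in part. Notch4 (61.8 CPM in members, 122 CPM in luminal-low members, against 2.89 CPM in others) and Notch1 (47.5 CPM in members against 6.09 CPM in others) were the 2 of 7 Notch genes called. The ligand Dll4, which marks arteries and sprouting tip cells, was at 23.5 CPM in members against 0.456 CPM in others, higher in 8 of 8 animals, but had too few UMIs to be counted. In the BMP and TGF-beta list 5 of 14 genes were called: Bmp6, the co-receptor Eng (204 CPM in members against 2.87 CPM in others), the inhibitor Smad6 and the response genes Id1 and Id3. The general receptors Tgfbr2 (290 CPM in members against 209 CPM in others) and Tgfbr3 (293 CPM in members against 292 CPM in others) were near the level of other nuclei.

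Junction, guidance and vessel tone genes followed. In the junction list 8 of 18 genes were called, including the rule gene Pecam1, the sialomucin Emcn (171 CPM in members against 1.71 CPM in others), Cdh5 and the scaffold Magi1 (1249 CPM in members against 283 CPM in others). Among guidance genes 7 of 18 were called, such as the semaphorin Sema6a (341 CPM in members, 651 CPM in luminal-low members, against 37.4 CPM in others), the semaphorin receptor Plxna2 (201 CPM in members against 34.5 CPM in others) and the ephrin Efnb2 (98.1 CPM in members against 5.87 CPM in others). Among vasomotor genes 5 of 13 were called. These were S1pr1, the sphingosine phosphate receptor, the adrenomedullin receptor pair Calcrl (134 CPM in members against 20.5 CPM in others) and Ramp2 (59.3 CPM in members against 2.77 CPM in others), the endothelin receptor Ednrb, and Nos3, the nitric oxide synthase of endothelium (37.8 CPM in members against 2.39 CPM in others). In the basement membrane and integrin list 1 of 17 genes, Col4a2 (197 CPM in members against 48.3 CPM in others), was called. Of the adhesion and inflammation list 1 of 10 was, Icam2 (28.1 CPM in members against 0.513 CPM in others), while the induced adhesion molecule Vcam1 was at 28.6 CPM in members against 8.21 CPM in others and higher in 5 of 8 animals.

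Fatty acid handling genes were called in 7 of 19 cases, with a median log2 ratio of 2.71. The 7 were Fabp4, Pparg, Scarb1, Cav1, Cavin2, Gpihbp1 and Cavin1. Gpihbp1 was at 123 CPM in all members, 249 CPM in luminal-low members and 2.79 CPM in other nuclei. In the Oxtr-KO animals it was at 50.7, 67.7, 98.5 and 96.9 CPM in members and in the flox animals at 35.5, 94.0, 52.0 and 118 CPM, against 1.58 to 3.05 CPM in the 8 animals' other nuclei. Members of every animal were thus far above its other nuclei, and the genotypes overlapped. Pparg, the nuclear receptor that drives fatty acid uptake genes, was at 928 CPM in members, 1812 CPM in luminal-low members and 77.9 CPM in other nuclei. Cd36 was not called: it was at 2137 CPM in members, 2632 CPM in luminal-low members and 1373 CPM in other nuclei, and higher in members in 6 of 8 animals.

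Adipocytes and pericytes share part of this list, so the luminal-low members were set beside luminal-low nuclei of the pericyte class (100 nuclei), the adipocyte class (581) and the fibroblast class (1421), each defined by at least 3 of 8 own markers. Pparg was at 1812 CPM in luminal-low endothelial nuclei, 710 CPM in the pericyte class, 1528 CPM in the adipocyte class and 199 CPM in the fibroblast class. In the same order of classes, Fabp4 was at 2680, 1070, 2249 and 127 CPM. For both genes the endothelial and adipocyte nuclei were the nearest pair. Gpihbp1 separated them, at 249 CPM in endothelial nuclei, 35.0 CPM in the pericyte class, 3.98 CPM in the adipocyte class and 6.71 CPM in the fibroblast class. Scarb1, the high-density lipoprotein receptor, was at 496, 52.5, 74.5 and 15.1 CPM. Meox2, a homeobox factor that drives fatty acid uptake in mouse heart endothelium, was at 103, 52.5, 1.08 and 12.5 CPM. Lpl, the lipase that parenchymal cells make, was highest in the adipocyte class, at 414, 818, 2247 and 516 CPM, again from endothelial to fibroblast nuclei. These are pooled nuclei with no replicate check, and the classes overlap in part, since 167 nuclei met the rule of more than 1 class.

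**Figure D3:**
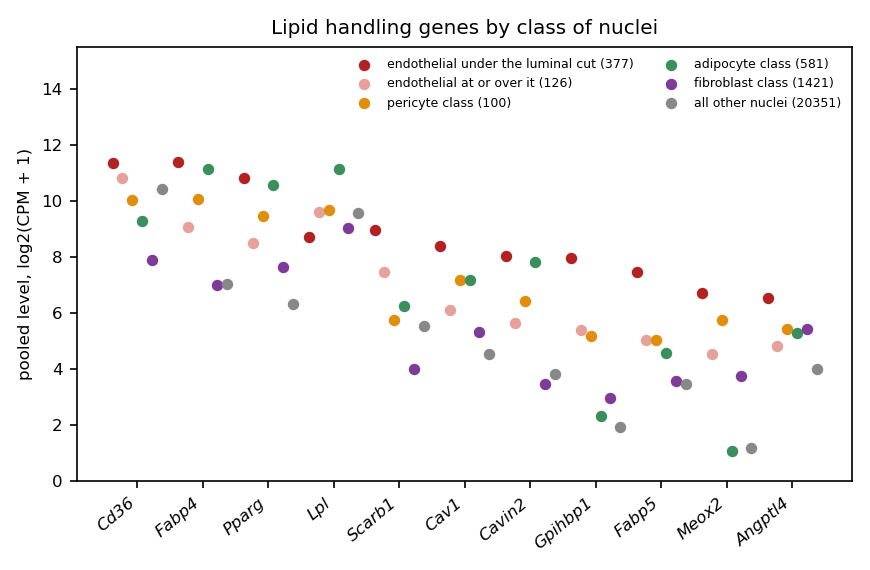
Pooled levels of 11 lipid handling genes, as log2(CPM + 1) on the y axis, in luminal-low and luminal-high endothelial nuclei, in the pericyte, adipocyte and fibroblast classes and in all other nuclei; points are pooled sums without error. Gpihbp1 sits at 249 CPM in luminal-low endothelial nuclei and at 35.0 CPM or less in the 3 classes, while Lpl is highest in the adipocyte class (2247 CPM).

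Luminal-low members were then sorted by markers of arteries, capillaries and veins. The lists of the 3 vessel types had 9 of 12 arterial, 6 of 9 capillary and 4 of 11 venous genes called. Among the 377 luminal-low nuclei, those with at least 3 of 15 arterial, 13 venous or 8 capillary markers were set apart, arterial or venous before capillary. This gave 55 arterial-marker, 59 venous-marker and 95 capillary-marker nuclei, and 168 remaining nuclei with too few markers, whose median depth was 1193 UMIs, against 2582, 2076 and 1698 UMIs in the 3 sets. The sets are ranges and not types: 64 remaining nuclei had exactly 2 capillary markers and 39 capillary-marker nuclei exactly 3, and 10 nuclei had at least 3 arterial and at least 3 venous markers. Most nuclei in the sets have no called animal (24, 16 and 12 had one), so the values below pool animals and are given with exact 95% Poisson intervals and no test.

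Sorted in this way, the 15 arterial and 13 venous markers and 7 of the 8 capillary markers were highest in their own set. The capillary marker Mfsd2a was not, with 2 UMIs in arterial-marker nuclei and 0 in capillary-marker nuclei. Aqp1, a capillary marker and water channel, was at 728 CPM (615 to 857) in capillary-marker and 714 CPM (581 to 868) in venous-marker nuclei, intervals that overlap. Vwf, the von Willebrand factor and a venous marker of the list, had a UMI in 26 of 59 venous-marker and 16 of 55 arterial-marker nuclei. Gja5, an arterial gap junction gene, had 62 UMIs in 23 arterial-marker nuclei and 0 UMIs in the venous-marker and capillary-marker nuclei, whose upper limits were 26.3 and 18.5 CPM. Fbln5, of arterial elastic fibres, was at 1125, 143 and 5.02 CPM in arterial-marker, venous-marker and capillary-marker nuclei, and Tll1, a venous marker of the list, at 26.5, 1328 and 5.02 CPM. Kdr and Gpihbp1, capillary markers of the list, were at 92.7, 164 and 673 CPM and at 126, 136 and 583 CPM. These genes formed the sets, so they only describe them.

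Genes that did not form the sets differed between them as well. In arterial-marker nuclei Epas1 was at 927 CPM (780 to 1094), against 300 CPM (216 to 405) in venous-marker and 296 CPM (226 to 382) in capillary-marker nuclei. The flow-induced factor Klf2 was at 503 CPM (396 to 630) in arterial-marker nuclei, against 50.0 CPM in venous-marker and 55.3 CPM in capillary-marker nuclei. Of 15 BMP and TGF-beta genes that did not form the sets, 7 were highest in arterial-marker nuclei, 5 of them with an interval above both others, while Eng and Tgfbr3 were highest in venous-marker nuclei. Bmp6 was at 1284, 92.8 and 372 CPM, Id1 at 371, 78.5 and 80.4 CPM and Smad6 at 351, 28.5 and 85.4 CPM in arterial-marker, venous-marker and capillary-marker nuclei. The tight junction gene Cldn5 was at 331 CPM (246 to 436), 14.3 CPM (1.73 to 51.6) and 95.5 CPM (57.5 to 149), and Nos3 at 205 CPM (139 to 291), 71.4 CPM (34.2 to 131) and 20.1 CPM (5.48 to 51.5), in the same order of sets. The arterial intervals lie above both others for each of these 7 genes.

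Venous-marker nuclei were highest for Emcn, at 864 CPM (717 to 1032), against 139 CPM (86.1 to 213) in arterial-marker and 246 CPM (182 to 325) in capillary-marker nuclei. Plvap, which builds the diaphragms of permeable vessels, was at 264 CPM (186 to 364), against 26.5 CPM in arterial-marker and 5.02 CPM in capillary-marker nuclei. Of 19 hormone and growth factor receptors, 8 were highest in venous-marker nuclei, and Insr and Lepr had an interval above both others. The insulin receptor Insr was at 921 CPM (769 to 1094), against 265 CPM (189 to 361) in arterial-marker and 382 CPM (301 to 478) in capillary-marker nuclei. Il6st, the shared receptor chain of the interleukin-6 family, was at 557 CPM (440 to 695) in venous-marker, 139 CPM (86.1 to 213) in arterial-marker and 70.3 CPM (38.5 to 118) in capillary-marker nuclei. The leptin receptor Lepr had 22 UMIs in 13 venous-marker nuclei, 157 CPM (98.4 to 238), against 19.9 CPM (4.10 to 58.0) in arterial-marker nuclei and 0 UMIs in 95 capillary-marker nuclei, which allows up to 18.5 CPM.

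Of 18 lipid handling genes that did not form the sets, 11 were highest in capillary-marker nuclei, 5 of them (Pparg, Cd36, Fabp4, Scarb1 and Angptl4) with an interval above both others. The other 7 were highest elsewhere, such as Cav1, at 311 CPM in capillary-marker, 530 CPM in arterial-marker and 350 CPM in venous-marker nuclei, and Meox2, at 55.3, 113 and 157 CPM in the same order. Pparg was at 3235 CPM (2990 to 3495), against 1337 CPM (1159 to 1535) in arterial-marker and 1099 CPM (932 to 1287) in venous-marker nuclei. Cd36 was at 4135 CPM (3857 to 4427), against 1595 CPM (1400 to 1810) in arterial-marker and 2227 CPM (1987 to 2488) in venous-marker nuclei. Fabp4 was at 4235 CPM (3954 to 4531), against 1728 CPM (1525 to 1951) in arterial-marker and 3112 CPM (2827 to 3418) in venous-marker nuclei. Scarb1 and Angptl4, a secreted inhibitor of lipoprotein lipase, were among the 5: in capillary-marker, arterial-marker and venous-marker nuclei Scarb1 was at 834, 192 and 393 CPM and Angptl4 at 191, 66.2 and 42.8 CPM. The adiponectin receptor Cdh13 was at 6652 CPM (6298 to 7020), against 2456 CPM (2212 to 2719) in arterial-marker and 2270 CPM (2027 to 2533) in venous-marker nuclei. Cdh5 did not separate the sets and was at 331 CPM (246 to 436) in arterial-marker, 321 CPM (234 to 430) in venous-marker and 342 CPM (265 to 433) in capillary-marker nuclei, intervals that overlap throughout. Milk protein RNA, which endothelium does not make, differed between the sets: all 8 milk protein genes were highest in capillary-marker nuclei, and Wap was at 29140, 32590 and 51827 CPM in arterial-marker, venous-marker and capillary-marker nuclei. The part of this RNA in the differences between sets was not tested.

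**Figure D4:**
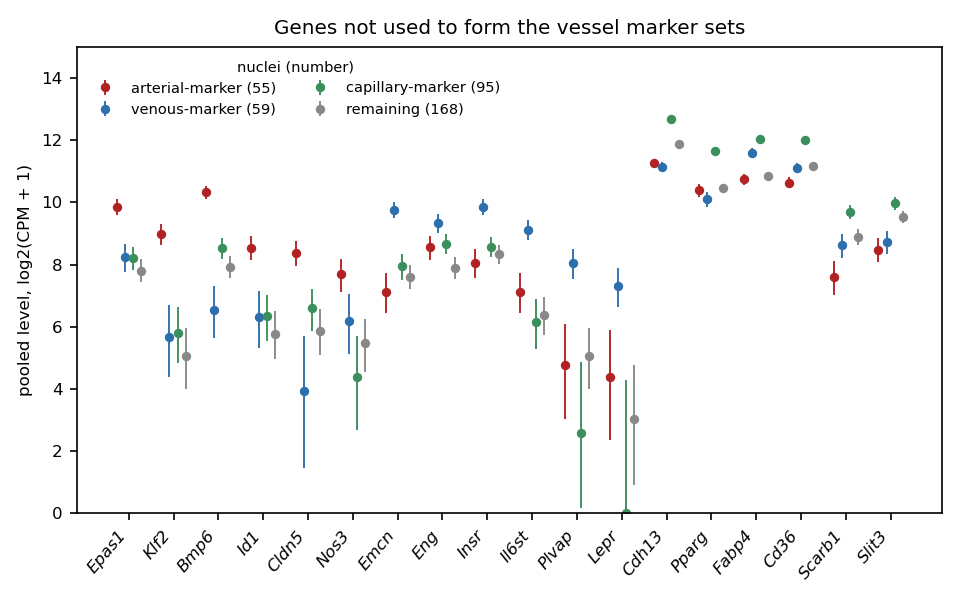
Pooled levels, as log2(CPM + 1) on the y axis, of 18 genes that did not form the vessel sets, in arterial-marker (55), venous-marker (59), capillary-marker (95) and remaining (168) luminal-low nuclei; bars are exact 95% Poisson intervals, counting error only. Epas1 to Nos3 are highest in arterial-marker, Emcn to Lepr in venous-marker and Cdh13 to Slit3 in capillary-marker nuclei.

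Genes outside the lists that led each set were named after their values were seen. Efna5, an ephrin, had 239 UMIs in 32 of 55 arterial-marker nuclei, and had a UMI in 1 venous-marker and 6 capillary-marker nuclei. Zfp521, a zinc finger factor, had a UMI in 44 of 59 venous-marker nuclei, 5 arterial-marker and 7 capillary-marker nuclei, and Kirrel3, an adhesion protein, in 29, 1 and 2 nuclei. Pdgfb, the ligand that recruits pericytes, had a UMI in 34 of 95 capillary-marker, 4 arterial-marker and 7 venous-marker nuclei. Each of these had a UMI in many nuclei of its set, but UMIs per nucleus were not compared. Of the 168 remaining nuclei, a UMI was found in 11 for Efna5, 20 for Zfp521, 18 for Kirrel3 and 26 for Pdgfb. Other leading genes rested on fewer nuclei, such as Nxph1, with 27 UMIs in 1 venous-marker nucleus.

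Several lists held few called genes or none, beside 1.66% called of all 16106 genes. In lists this short a count of 0 is near that share and says little about the list. Of 19 hormone and growth factor receptors 0 were called (median log2 ratio −0.13). Insr (344 CPM in members, 436 CPM in luminal-low members, against 197 CPM in others) and the insulin-like growth factor receptor Igf1r (160 CPM in members, 307 CPM in luminal-low members and 53.9 CPM in other nuclei) were higher in 8 of 8 animals without reaching the 4-fold bound, and Esr1, the oestrogen receptor, was lower in 8 of 8 (348 CPM in members against 563 CPM in others, with 102 CPM in luminal-low members). Of 11 solute carriers 0 were called. Slc2a1, the glucose carrier, was at 75.6 CPM in members, 24.8 CPM in luminal-low members and 103 CPM in other nuclei. No cell cycle gene of 13 and no immediate early gene of 10 was called. The cell cycle list had a median log2 ratio of 0.57 in members and 1.35 in luminal-low members, against −0.02 and −0.03 over all genes. For the immediate early list the medians were 0.27 and 0.57. The proliferation marker Mki67 was at 34.7 CPM in members and in other nuclei alike, and Fos at 19.9 CPM in members against 20.1 CPM in others. In the list of sprouting genes 2 of 9 were called, Col4a2 and Plvap, while Apln, a tip cell ligand, was at 2.04 CPM in members against 2.41 CPM in others. None of 4 lymphatic and none of 8 milk protein genes was called.

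Oxtr itself was read first in the genotype comparison. The deletion is in adipocytes, so endothelial levels do not check it. Members of the Oxtr-KO animals had Oxtr at 0, 0, 7.58 and 0 CPM, and members of the flox animals at 88.9, 0, 7.42 and 0 CPM, which stand for 1 and 11 UMIs. The flox excess lies in 1 animal, and the gene had too few UMIs to be tested. Over all members Oxtr was at 12.3 CPM (24 UMIs in 17 of 503 nuclei), against 21.0 CPM in other nuclei.

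The endothelial share of nuclei overlapped between genotypes. Members were 1.09, 1.67, 1.52 and 0.984% of the nuclei of the Oxtr-KO animals and 0.878, 0.739, 1.09 and 1.30% of those of the flox animals. The means were 1.32% ± 0.330 in Oxtr-KO and 1.00% ± 0.246 in flox (SD, n = 4 each), a difference of 0.315 percentage points (exact two-sided permutation test, p = 0.171). For luminal-low members the means were 0.592% ± 0.287 in Oxtr-KO and 0.345% ± 0.0765 in flox animals (exact permutation p = 0.200). The smallest p that 4 against 4 can give is 0.0286. Depth also overlapped, with median UMIs per member of 5230 ± 1418 in Oxtr-KO and 5718 ± 664 in flox animals (exact permutation p = 0.600). Milk protein RNA took 13.2% ± 3.21 of member UMIs in Oxtr-KO and 13.8% ± 3.03 in flox animals (exact permutation p = 0.857). Shares are of nuclei with 1 animal's hashtag, which holds 29.6% of members and 63.1% of other nuclei, so they are not the share of endothelium in the tissue.

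Between genotypes, 1 of 2340 genes passed an adjusted p of 0.05 in member sums per animal (0.0427%; quasi-likelihood test of edgeR, Benjamini-Hochberg), and 93 had an unadjusted p under 0.05. The gene was Plpp4, a phospholipid phosphatase (ENSMUSG00000070366.6). It was at 41.4, 83.9, 17.8 and 0 CPM in the Oxtr-KO animals and at 296, 474, 526 and 146 CPM in the flox animals (TMM-scaled), a mean of 35.8 ± 36.3 CPM in Oxtr-KO against 360 ± 174 CPM in flox animals (SD, n = 4 each). The groups did not overlap, as was so for 76 of 2340 genes (3.25%). The log2 fold change was −2.96 (SE 0.49, edgeR adjusted p = 0.0262). The call was lost without Oxtr-KO animal 1, 3 or 4 or flox animal 2 or 3 (edgeR adjusted p 0.0732 to 0.240), and in members with 0 exclusion UMIs, where the log2 fold change was −2.72 (edgeR adjusted p = 0.162). In luminal-low members, where 0 of 169 genes were called, Plpp4 had too few UMIs to be tested (1 in Oxtr-KO and 2 in flox animals). In pooled nuclei, with and without an animal, Plpp4 was at 16.9 CPM in luminal-low members, 179 CPM in luminal-high members and 190 CPM in other nuclei. Of its UMIs in members with an animal, luminal-high members held 18 of 19 in Oxtr-KO and 108 of 110 in flox animals. All other nuclei of the same animals had Plpp4 at 101 ± 55.3 CPM in Oxtr-KO and 284 ± 157 CPM in flox animals. The genotype effect in members minus that in other nuclei was −1.42 on the log2 scale (edgeR adjusted p = 0.963), and 0 of 2340 genes passed that test of the difference (0.0%, 108 at an unadjusted p under 0.05, and 0 by DESeq2), while 6 passed with no filter on low counts and 8 with a filter on the sums of members and other nuclei together. The 10 luminal genes took 2.93, 2.38, 1.76 and 1.49% of member UMIs in the Oxtr-KO animals and 2.66, 2.59, 2.42 and 2.16% in the flox animals, and their part in the result was not tested.

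The genes of next smallest p did not pass. Clec2d, a C-type lectin, was at 402 ± 108 CPM in Oxtr-KO and 819 ± 155 CPM in flox animals, and G0s2, an inhibitor of fat breakdown, at 677 ± 343 CPM in Oxtr-KO against 1815 ± 854 CPM in flox animals. Ints3 was at 44.3 ± 12.8 CPM in Oxtr-KO against 131 ± 5.44 CPM in flox animals and Stard9 at 79.4 ± 32.8 CPM in Oxtr-KO against 167 ± 38.0 CPM in flox animals. Those higher in Oxtr-KO were Bcl11a (250 ± 79.0 CPM in Oxtr-KO against 80.8 ± 58.9 CPM in flox animals), Ppt1 (143 ± 20.4 CPM in Oxtr-KO against 60.2 ± 20.3 CPM in flox animals), Ccnd3 (683 ± 55.0 CPM in Oxtr-KO against 392 ± 89.7 CPM in flox animals), Sik2 (298 ± 80.2 CPM in Oxtr-KO against 149 ± 47.1 CPM in flox animals) and Dnal1 (192 ± 123 CPM in Oxtr-KO against 74.7 ± 30.0 CPM in flox animals). The edgeR adjusted p was 0.852 or 0.935 for each of the 9 genes. In other nuclei Clec2d had means of 378 CPM in Oxtr-KO and 592 CPM in flox animals, and G0s2 of 792 and 1688 CPM. In the same order, Bcl11a was at 258 and 125, Ppt1 at 94.0 and 76.6 and Ccnd3 at 532 and 446 CPM. Sik2 was at 266 and 164 and Dnal1 at 132 and 74.1 CPM. There Ints3 was at 51.4 ± 1.56 CPM in Oxtr-KO against 53.7 ± 6.35 CPM in flox animals. Stard9 was at 23.9 ± 5.71 CPM in Oxtr-KO against 25.3 ± 5.65 CPM in flox animals. The effect in members minus that in other nuclei had an edgeR adjusted p of 0.963 for each of the 9 genes. In members Ints3 rests on 20 UMIs in Oxtr-KO and 41 in flox animals, and Stard9 on 29 UMIs in Oxtr-KO and 53 in flox animals.

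No gene of the endothelial lists was called between genotypes, beside 1 of all 2340 genes (0.0427%), so this count says little about the lists. The 8 lipid handling genes tested had a median log2 fold change of −0.07, against −0.01 over all tested genes, with 2 higher and 6 lower. Pparg was at 755 ± 62.1 CPM in Oxtr-KO and 639 ± 112 CPM in flox animals (log2 fold change 0.23, SE 0.22), and Fabp4 had a log2 fold change of −0.21 (SE 0.27). Cav1, of caveolae, was at 103 ± 39.7 CPM in Oxtr-KO against 207 ± 94.8 CPM in flox animals, with overlapping groups. The 8 BMP and TGF-beta genes had a median of −0.44, with 2 higher and 6 lower. Among them Tgfbr3 was at 303 ± 60.5 CPM in Oxtr-KO against 474 ± 77.9 CPM in flox animals, without overlap, and Bmp6 at 177 ± 105 CPM in Oxtr-KO against 418 ± 495 CPM in flox animals, where 1 flox animal reached 1134 CPM. The 8 transcription factors had a median of −0.20 and the 6 VEGF genes of −0.14. Erg was at 130 ± 32.6 CPM in Oxtr-KO and 91.3 ± 25.7 CPM in flox animals. For these genes the edgeR adjusted p was 0.984. Each animal's sum held 12 to 28 nuclei, so a p that missed the threshold does not show that the genotypes were alike. Luminal-low members gave 191362 of the 962437 UMIs in these sums, so most of what was compared came from luminal-high members.

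**Figure D5:**
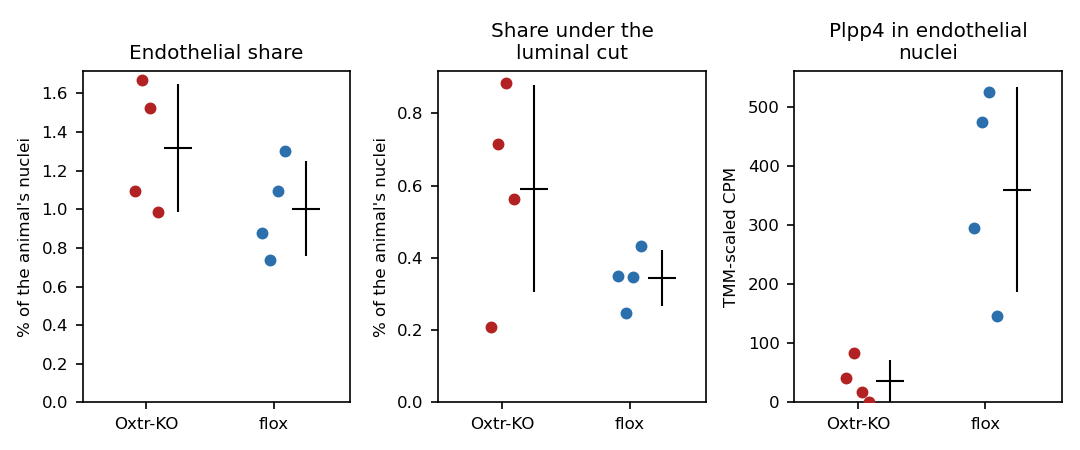
Endothelial share of an animal's nuclei (left, %), the share of luminal-low members (middle, %) and Plpp4 in member sums (right, TMM-scaled CPM) in Oxtr-KO (red) and flox (blue) animals; points are animals, and bars are mean and SD (n = 4 each). Both shares overlap between genotypes, while Plpp4 lies at 0 to 83.9 CPM in Oxtr-KO and 146 to 526 CPM in flox animals.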

How the data were processed

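Nuclei of 8 dams were tagged with hashtags, pooled and read in an RNA and a hashtag library (10x Genomics). The submitters' processing notes name fastp, Cell Ranger 7.2.0 and the build GRCm39; their roles are not stated in the sources at hand. The authors deposited raw UMI counts per gene and nucleus (33943 genes, 21805 barcodes, 107910356 UMIs), and a table with 1 line per hashtag UMI and its read count, whose 5174496 lines were counted per barcode. Deposited names of hashtags and genes (other text columns) only joined the tables. After filtering, 20854 barcodes were left (median 4356.5 UMIs). Hashtag calls used HTODemux (Seurat 5.3.0, quantile 0.99) on 9 hashtags, leaving out Unknown_sample1, and gave 1246 to 2013 nuclei per animal, 5647 with no call and 1944 with several. Members with several hashtags stayed in pooled values and out of animal sums.

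Levels are CPM of summed UMIs, and a log2 ratio adds 1 CPM to both sides; genes needed 100 UMIs over all kept nuclei. Genotype sums (51602 to 191905 UMIs per animal) were tested with edgeR 4.0.16 in R 4.3.3 (quasi-likelihood, TMM, filterByExpr, Benjamini-Hochberg, threshold 0.05); genotype levels are TMM-scaled CPM. The interaction fit held animal as a term and kept genes by the member sums, a choice made after its test on simulated data recovered few changes with a filter on all 16 sums. With the member sums it recovered 9 of 92 simulated 2-fold changes (9.8%) and 50 of 71 simulated 4-fold changes (70.4%). A count of 0 in that test thus does not show that the genotype effects were alike. DESeq2 1.42.0 was an alternative. Single values had exact two-sided permutation tests over animals. Animals are the replicates, all in 1 library. Named genes were the 25 of highest ratio outside the rule, genes of the lists, every called genotype gene, the 5 of smallest p in each direction and the 2 of smallest p per list. The members and gene lists were chosen with earlier results of these data known. The deposited build GRCm39 differs from that of the promoter windows (GRCm38.p6). One gene of the marker lists is not reported here.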

Additional observations from a re-analysis of the deposited data

Results flagged for a closer look

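In groups of 4 animals, 6 of 78 groups held 1 value far from the rest, where chance flags about 5%. The milk protein share of members was 18.3% in flox animal 3 and 12.0 to 12.9% in the other flox animals. Eng was at 196 CPM in flox animal 1 and 118 to 125 CPM in the others. Adgrf5 was at 318 CPM in Oxtr-KO animal 3, against 209 to 224 CPM in the other Oxtr-KO animals, and S1pr1 at 194 CPM in Oxtr-KO animal 4, against 44.4 to 62.5 CPM. Ints3 was at 25.4 TMM-scaled CPM in Oxtr-KO animal 4, against 49.0 to 53.3 CPM, and Ccnd3 at 526 TMM-scaled CPM in flox animal 4, against 345 to 350 CPM. Members per animal are few, and the part of single nuclei was not tested.

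A hashtag outside the 8 animals also marked members. Unknown_sample2 was called for 6 endothelial nuclei, with a median of 8430.5 UMIs and a milk protein share of 3.27%, against 1995 UMIs and 17.7% over all members. The 4 members with more than 5 UMIs of the neuronal gene Nrg3 were all among these 6. All 6 were luminal-low, so their UMIs are part of every pooled luminal-low value. Without Unknown_sample2, 276 genes were called higher in members, among them all 268. The labels do not say what this sample is.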

How the results depend on the processing

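Only Plpp4 and the genes of next smallest p were followed by name through the settings, and none changed sign where it was tested. They were chosen for a small p in these same animals, so a kept sign describes them and is no support. Genes named from the lists, such as Pparg, Cav1 and Bmp6, were not followed in this way. The genotype count was 0 with 0 exclusion UMIs, with 10 hashtags and in luminal-low members (169 genes tested), 0 to 1 leaving out each animal, and 12 (4 higher, 8 lower) with no filter on low counts, where Bcl11a (edgeR adjusted p = 0.00986) and G0s2 (0.0160) passed; Plpp4 was at −2.72 (adjusted p = 0.162) with 0 exclusion UMIs, and had too few UMIs to be tested with 10 hashtags and in luminal-low members. Without single animals Plpp4 ran from −3.72 to −2.66 on the log2 scale (adjusted p 0.00326 to 0.240). The count of differences from other nuclei was 6 with no filter, 8 with the filter on all 16 sums and 0 to 2 without single animals (2 without Oxtr-KO animal 4, 1 without flox animal 4). With 10 hashtags the share difference turned to −0.101, the depth difference to 502 UMIs and the milk difference to 0.804 percentage points; in luminal-low members depth turned to 272 UMIs and milk to 1.12. Leaving out each animal, the share ran from 0.198 to 0.426, depth from −1035 to 115 (above 0 without Oxtr-KO animal 4) and milk from −1.85 to 0.852 (above 0 without Oxtr-KO animal 3 or flox animal 3). None of these passed, and the cause was not tested. Genes called higher in members numbered 124 against the pericyte class (109 of them among the 268), 159 at 8 times or more, 433 without the rule on animals and 1002 in luminal-low members without it. A replicate block by animal number gave 1 call of 3133 genes and exact p of 0.375, 0.750 and 1 for share, depth and milk; same-numbered animals did not deviate together (r −0.0454 to 0.0416), and the block changed no call. The ratio rule for hashtags gave a share difference of 1.68 (exact permutation p = 0.629). There Oxtr-KO animal 3 stood at 8.33% (6 of 72 nuclei), while Oxtr-KO animal 4 and flox animals 2 and 3 had 0 members. Too few animals with enough members were left for the other tests, which were not run. The luminal-low settings, the pooled-only settings, the removal of Unknown_sample2 and the filter on 16 sums were chosen after seeing the data. The genotype tests rest on 12 to 28 members an animal, and on 16 to 29 with 10 hashtags, 11 to 22 with at least 4 markers, 12 to 23 with 0 exclusion UMIs and 4 to 12 in luminal-low members.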

Other observations

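Unc5c, a netrin receptor, had 63 UMIs in the luminal-low nuclei, all in 6 of the 168 nuclei without enough arterial, venous or capillary markers. Reln, a marker of lymphatic endothelium in the fixed list, had 33 UMIs in 4 of the same 168 nuclei. Of the other lymphatic markers, Prox1 had a UMI in 5 of them, Flt4 in 4, Lyve1, Mmrn1 and Ccl21a in 1 each and Pdpn in 0. Reln alone thus does not mark these nuclei as lymphatic. Whether the nuclei with Unc5c or Reln carried the hashtag Unknown_sample2 was not tested. Cytl1, a secreted protein, had 59 UMIs in 16 of 55 arterial-marker nuclei and 0 UMIs in venous-marker and capillary-marker nuclei. Stard9 was at 175 CPM in luminal-low members, 54.6 CPM in luminal-high members and 31.5 CPM in other nuclei. These genes were named after their values were seen.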
